A study of Rattus norvegicus with 142 samples.

Results

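A set of 39 Affymetrix probe sets, out of 24183 measured, was higher after hypoxic seizures in both the hippocampus and the cortex of neonatal rats. The members were chosen by measured values. Each had a log2 intensity in the hypoxia (HS) libraries at least 0.7 above that in the normoxic (noHS) libraries in each tissue, as the mean of the differences at 5 times. Each also had a mean log2 intensity of at least 6 in HS and a change of at most 0.8 on the log2 scale between 1 h and 168 h in noHS, again in each tissue. A difference of 0.7 on the log2 scale is a 1.62-fold change. The difference alone was met by 1.64% of all probe sets in hippocampus and by 1.78% in cortex. In both tissues it was met by 154 probe sets, and 71 of these also had the level. The opposite difference, at least 0.7 lower in HS in both tissues, was met by 9 probe sets at any level.

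Seizures in the immature brain depend in part on AMPA receptors, the glutamate-gated channels that carry most fast excitation between neurons. NBQX is an antagonist of these receptors. Brief hypoxia in rat pups of this age evokes seizures at the time of exposure and is used as a model of neonatal hypoxic seizures, in which many neurons and glia are still maturing. The values here are therefore those of a tissue that changes by itself over the week that was sampled.

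RNA came from whole hippocampi and cortices of Long-Evans pups that were 10 days old at exposure. The noHS pups had a sham exposure and vehicle injections, the HS pups had 15 min at 5% oxygen and vehicle injections, and the HS+NBQX pups had the same hypoxia followed by NBQX, with up to 4 intraperitoneal injections over 48 h. Pups were killed at 1, 6, 12, 48 or 168 h. The 142 libraries came from 74 pups of 11 litters, with 24 noHS, 23 HS and 23 HS+NBQX libraries in hippocampus, 25, 23 and 24 in cortex, and 4 to 6 per tissue, treatment and time. Most pups gave both tissues, so the tissues are not independent samples. A litter was killed at 1 time, and 10 of the 11 litters held all 3 treatments, the other one giving HS pups at 1 h only. In bulk tissue a change in the number of cells of a type and a change in RNA per cell cannot be told apart.

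The deposited values and the reference tables used here do not pair probe sets with genes. The members are therefore given by probe set identifier, at most 2 that were higher and 2 that were lower per comparison, and otherwise by their rank. Rank 1 is the member whose smaller tissue difference was the largest. No pathway, cell type marker or sequence could be assigned to a member, and the labels of the tissues were not checked against marker genes.

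The median array intensity lay between 63.9 and 79.9. Treatments occupied different columns of the hybridization plates, so treatment and plate column cannot be told apart. In both tissues the noHS libraries lay in columns 9 to 12, the HS libraries in 4 to 6 and the HS+NBQX libraries in 1 to 3. Within a treatment the columns also followed time, and 16 of the 30 groups of tissue, treatment and time lay in a single column, so that column and time can be told apart only in part. In cortex, for example, the mean of the members over the noHS libraries was 7.03 in plate column 9 and 6.69 in plate column 11. As deviations from the mean of each library's own group, the values were -0.07 and -0.02. Groups that lie in a single column draw such a deviation toward 0. The log2 ratio of the 3' to the 5' probe set of the hexokinase control, a measure of RNA length, was lower than in noHS by a difference of -0.23 in HS and -0.41 in HS+NBQX in hippocampus, and of -0.24 and -0.31 in cortex. The same ratio of beta-actin differed by -0.11 and -0.14 in hippocampus and by -0.01 and 0.02 in cortex, and that of GAPDH by 0.02 and 0.04 in hippocampus and by 0.14 and 0.16 in cortex, so the controls did not move alike. Hexokinase, the one that moved most, was taken up as a covariate after these values were seen. Bacterial transcripts spiked into the samples were 0.35 higher in HS and 0.41 higher in HS+NBQX than in noHS in cortex, and differed by 0.02 and -0.04 in hippocampus.

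The mean of the 39 members gives their common level in each library. In hippocampus it ran from 6.40 to 7.20 with a median of 6.86 in the noHS libraries. In the HS libraries it ran from 7.50 to 7.91 with a median of 7.73, and in the HS+NBQX libraries from 7.69 to 8.13 with a median of 7.96. No HS or HS+NBQX library reached down to the noHS range, whereas HS and HS+NBQX overlapped. In cortex the range was 6.55 to 7.18 in noHS, 7.44 to 7.93 in HS and 7.72 to 8.00 in HS+NBQX, with medians of 6.80, 7.71 and 7.84. The separation of HS from noHS follows from the choice of the members and is a description. The HS+NBQX libraries took no part in that choice, but they are set against noHS or HS libraries that did.

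**Figure D1:**
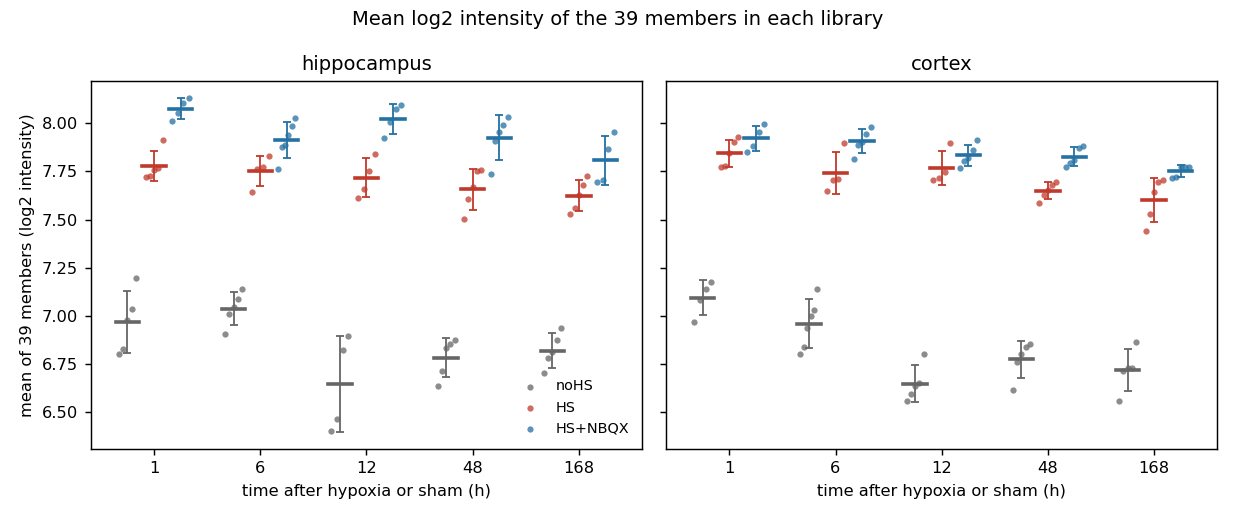
Mean log2 intensity of the 39 members (vertical axis) in each library, by time in h (horizontal axis), tissue (panels) and treatment (colors). Points are libraries, thick bars are group means and thin bars are 1 SD. The noHS libraries reach at most 7.20 in hippocampus and 7.18 in cortex, below every HS and HS+NBQX library.

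Over the 5 times, the HS minus noHS difference of the members (log2) had a median of 0.82 in hippocampus (0.71 to 1.26) and of 0.84 in cortex (0.70 to 1.42). Over all 24183 probe sets the medians were -0.01 and -0.02. The difference was a median of 3.51 times a member's SD between replicates in hippocampus (2.12 to 5.42) and of 3.37 times in cortex (2.29 to 8.67). The tissue differences of a member had a median gap of 0.06 and a largest gap of 0.36, and 22 of the 39 were larger in cortex. The rule asked for at least 0.7 in both tissues, which favors a small gap. Most pups also gave both tissues, so the gap is a description of the members. In noHS the members covered a wide range of brightness, from 5.27 to 10.04 in hippocampus and from 5.36 to 9.42 in cortex.

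The 2 highest-ranked members were 1384041_AT and 1369733_AT. In hippocampus 1384041_AT had log2 intensities of 6.36 to 7.85 in noHS with a median of 7.12, of 7.89 to 8.71 in HS with a median of 8.41, and of 7.78 to 9.06 in HS+NBQX with a median of 8.72. All 23 HS libraries thus lay above the highest noHS library, and 22 of the 23 HS+NBQX libraries did. In cortex 1384041_AT ran from 6.60 to 8.15 in noHS (median 7.76), from 8.28 to 9.34 in HS (8.84) and from 8.60 to 9.63 in HS+NBQX (9.15). Here neither hypoxia group overlapped noHS. The mean HS minus noHS difference was 1.26 in hippocampus, a fold of 2.40, and 1.22 in cortex, a fold of 2.33.

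The probe set 1369733_AT had log2 intensities of 6.66 to 7.89 in noHS hippocampus (median 7.40), 7.97 to 9.33 in HS (8.60) and 8.45 to 9.77 in HS+NBQX (9.35). In cortex it ran from 6.60 to 7.43 in noHS (7.15), from 7.61 to 9.18 in HS (8.61) and from 7.83 to 9.17 in HS+NBQX (8.88). Neither tissue had an overlap between noHS and a hypoxia group. The folds of HS over noHS were 2.33 in hippocampus and 2.63 in cortex.

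Such a complete separation was found for 6 members in hippocampus and 8 in cortex, against 0.0579% and 0.0662% of all probe sets. All HS libraries lay above the noHS median for 35 members in each tissue, against 2.13% of all probe sets in hippocampus and 1.86% in cortex. The rule used these libraries, so these counts describe the members and support nothing.

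The 3 members just inside the threshold had smaller tissue differences of 0.70, 0.71 and 0.71. The 3 probe sets just outside it, with level and maturation in range, had 0.69, 0.68 and 0.68, so the limit does not mark a gap in the values.

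A member's identifier carries one further feature. Probe sets whose identifier ends in _A_AT are those that the array's designers marked as matching several transcripts of 1 gene. They made up 7 of the 39 members, 17.9%, and 4.02% of all probe sets.

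**Figure D2:**
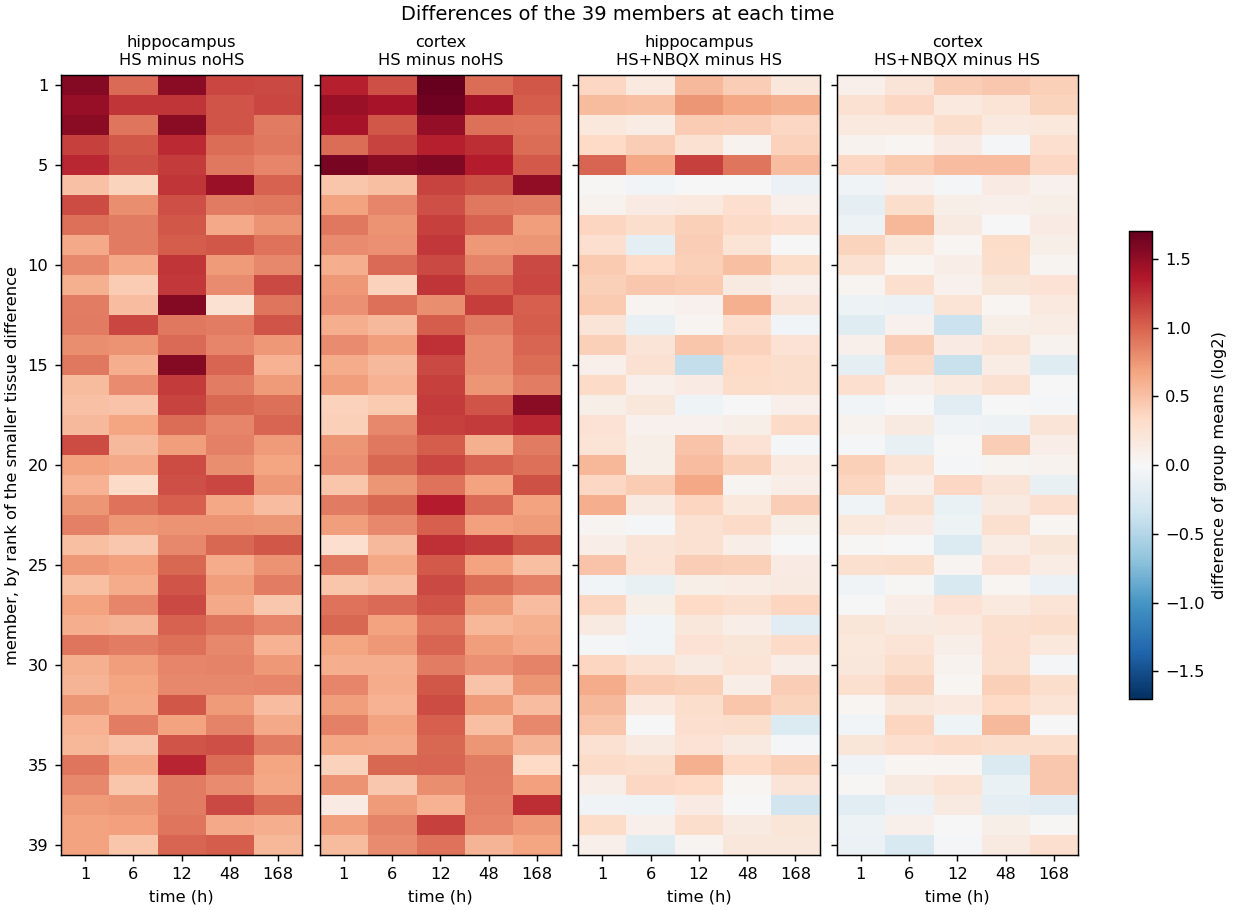
Differences of group means (log2, color) for the 39 members (rows, by rank) at each time in h (columns). The panels give HS minus noHS and HS+NBQX minus HS in each tissue. Every cell of the HS minus noHS panels is above 0, whereas the HS+NBQX minus HS panels hold both signs, with medians of 0.22 in hippocampus and 0.15 in cortex over the 5 times.

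The members were followed over time. Each of the 39 was higher in HS than in noHS at all 5 times in both tissues, a pattern that 8.17% of all probe sets showed and that the rule on the mean favors. The median difference of the members in hippocampus was 0.74 at 1 h, 0.70 at 6 h, 1.06 at 12 h, 0.86 at 48 h and 0.82 at 168 h. In cortex it was 0.72, 0.75, 1.12, 0.85 and 0.88. The members were thus already higher in HS at 1 h, and the median difference at 168 h was not below that at 1 h in either tissue. For 20 members in hippocampus and 29 in cortex it was the largest at 12 h, and for none was it the smallest there. These counts were not taken over all probe sets, whose median difference at 12 h was 0.004 in hippocampus and 0.01 in cortex.

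The level of the noHS libraries at 12 h moved with this. Relative to 1 h, the members in noHS had a median change of -0.32 in hippocampus and -0.44 in cortex at 12 h, and 2 and 0 of the 39 were above their 1 h level. In HS the median change at 12 h was -0.04 in hippocampus and -0.10 in cortex. The change from 1 h to 12 h was not taken over all probe sets. All noHS libraries of 12 h lay in plate column 11 and came from litters 2 and 8. This time therefore cannot be told apart from its litters, nor fully from its plate column. Over the whole week, 28 members were lower at 168 h than at 1 h in noHS hippocampus, with a median change of -0.20, and 35 in noHS cortex, with a median of -0.40. Of all probe sets, 48.4% were lower at 168 h in hippocampus and 58.0% in cortex. The HS libraries changed by a median of -0.20 and -0.36 over the same week. The rule limited the week's change in noHS but not its sign, nor the change in HS, which reached 1.17 in hippocampus and 0.96 in cortex.

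Whether the HS response changed with time was tested with an F test in limma on the terms for treatment and time together, with Benjamini-Hochberg adjustment over all probe sets. This uses the differences among the times, whereas the rule used their mean. The rule also limited the noHS change between 1 h and 168 h, and used the same libraries, so the test is not independent of it. Pups were taken as separate samples, and each time held 2 litters with both treatments. A change with time therefore cannot be told apart from a difference between litters. In hippocampus the test called 0 members, and 0% of all probe sets. At an unadjusted p under 0.05 there were 8 members and 945 probe sets (3.91%), and the analysis of variance of the methods called 0 members as well. The smallest adjusted p of a member was 0.957. On simulated intensities this test recovered 8 of 100 changes of 0.5 at 12 h, so 0 calls do not show an unchanged difference. In cortex it called 2 members, against 0.0744% of all probe sets, and 14 members had an unadjusted p under 0.05, as did 7.31% of all probe sets.

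The 2 members called in cortex were 1371499_AT, of rank 17, and 1370951_AT, of rank 24. In cortex at 1 h, 1371499_AT was at 10.02, 9.91, 9.67 and 9.60 in the noHS libraries and at 10.41, 10.34, 10.04, 10.12 and 10.04 in the HS libraries. At 168 h it was at 9.61, 9.06, 9.23, 9.56 and 9.45 in noHS and at 10.60, 10.65, 11.17, 11.19 and 10.99 in HS. All HS libraries were above all noHS libraries at both times, and the distance was wider at 168 h, where HS had moved up and noHS down. Its HS minus noHS difference in cortex was 0.39 at 1 h, 0.44 at 6 h, 1.18 at 12 h, 1.06 at 48 h and 1.54 at 168 h (adjusted p = 0.00697).

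The probe set 1370951_AT was at 7.66, 7.34, 7.57 and 7.35 in noHS cortex at 1 h and at 7.72, 7.89, 7.45, 7.84 and 7.94 in HS. At 48 h it was at 6.99, 6.24, 6.82, 6.74 and 6.62 in noHS and at 7.87, 8.01, 7.79, 7.77 and 7.91 in HS. The groups overlapped at 1 h and were apart at 48 h (adjusted p = 0.0158). Without replicate 3, the adjusted p was 0.323 for 1371499_AT and 0.193 for 1370951_AT. In hippocampus, neither was called, with an adjusted p of 1.00 for both, and the difference between the tissues was not tested. The hippocampal HS minus noHS difference was also larger at 168 h than at 1 h. It was 0.94 after 0.50 for 1371499_AT and 1.06 after 0.52 for 1370951_AT.

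**Figure D3:**
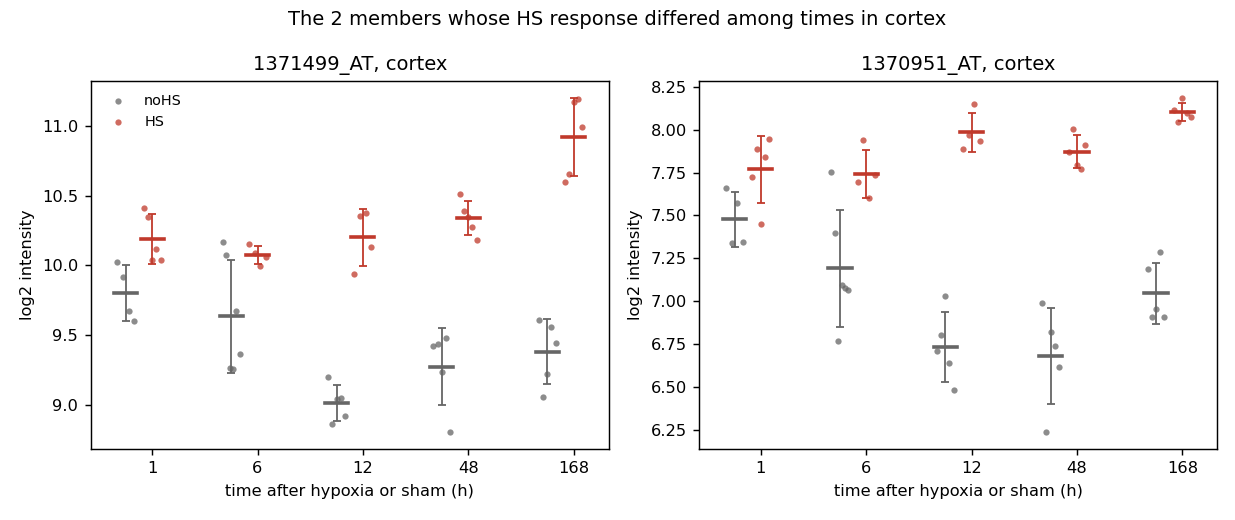
Log2 intensity (vertical axis) of 1371499_AT and 1370951_AT in each noHS and HS library of cortex, by time in h (horizontal axis). Points are libraries, thick bars are group means and thin bars are 1 SD. The difference of 1371499_AT grows from 0.39 at 1 h to 1.54 at 168 h.

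The rule used the HS and noHS libraries of all litters, so their values by litter are a description of the members. In each of the 10 litters that held both treatments, the mean of the members was higher in HS pups than in their noHS littermates, by 0.69 to 1.17 in hippocampus and by 0.74 to 1.14 in cortex. Of the 39 members, 36 were higher in HS in all 20 combinations of litter and tissue, and the others in 19, against 3.13% of all probe sets in all 20. In 1 litter of 168 h the plates of the tissues were exchanged relative to the other litters, and its differences were 0.83 in hippocampus and 0.95 in cortex.

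Libraries of 1 group also differed from each other in a way that the members shared. Over the deviations from the group means, the mean correlation of all pairs of members was 0.19 in hippocampus, over 70 libraries, and 0.10 in cortex, over 72. Over all pairs of probe sets with a mean HS level of at least 6 it was 0.01 in both. The members were chosen for 1 contrast on the same arrays and share each library's preparation, so this is a description.

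With NBQX after the hypoxia, most members lay farther from noHS than without it. In hippocampus 37 of the 39 had a higher mean in HS+NBQX than in HS, with a median difference of 0.22 on the log2 scale (-0.06 to 0.85), against 0.01 over all probe sets. By limma over all probe sets, 20 members were higher in HS+NBQX at an adjusted p under 0.05, 51.3% of them, against 2.66% of all probe sets called higher, and 0 members were lower, against 1.57%. At an unadjusted p under 0.05 there were 30 members in either direction, against 16.1% of all probe sets. In cortex 34 of the 39 had a higher mean in HS+NBQX, with a median difference of 0.15 (-0.09 to 0.44) against -0.03 over all probe sets. Here 8 members were called higher, 20.5%, against 0.459% of all probe sets, and 0 were called lower, against 2.21%. Of all probe sets, 52.6% had a higher mean in HS+NBQX than in HS in hippocampus and 40.2% in cortex. The comparison shares the HS libraries with the rule. The order noHS, HS, HS+NBQX is also that of the plate columns, so an effect of NBQX and one of plate position cannot be told apart. It is the order of the mean hexokinase ratio in hippocampus as well, at 1.85, 1.62 and 1.44. With that ratio as a covariate, 14 members were called in hippocampus and 7 in cortex.

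Both tissues called 7 members, either tissue 21 and neither 18. The same counts were not taken over all probe sets, and most pups gave both tissues, so these numbers are a description. The difference was larger in hippocampus for 34 of the 39, but a difference between the tissues was not tested. Leaving out 1 litter brought the number of members called in cortex to between 3 and 10 of the 39, the lowest without litter 2, of 12 h. In hippocampus the number was 15 to 21.

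The largest differences between HS+NBQX and HS in hippocampus were those of 1387436_AT, of rank 5, and 1369733_AT. In hippocampus 1387436_AT ran from 7.42 to 8.31 in noHS (median 8.02), from 8.59 to 9.64 in HS (8.92) and from 9.07 to 10.47 in HS+NBQX (9.98). The treatments followed each other in this order, with an overlap only between HS and HS+NBQX. The difference between HS+NBQX and HS was 0.85 ± 0.07 (SE, adjusted p = 6.63e-12, limma), and at single times it was 0.99 at 1 h, 0.66 at 6 h, 1.17 at 12 h, 0.91 at 48 h and 0.52 at 168 h. For 1369733_AT it was 0.61 ± 0.06 (adjusted p = 7.14e-09).

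In cortex the largest differences were those of 1387436_AT and 1384041_AT. The probe set 1387436_AT ran from 7.55 to 8.35 in noHS cortex (median 7.83), from 8.71 to 9.77 in HS (9.32) and from 9.05 to 10.09 in HS+NBQX (9.74). Its difference between HS+NBQX and HS was 0.44 ± 0.05 (SE, adjusted p = 1.06e-07), of the same sign as in hippocampus. For 1384041_AT the difference was 0.32 ± 0.05 (adjusted p = 2.36e-04).

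**Figure D4:**
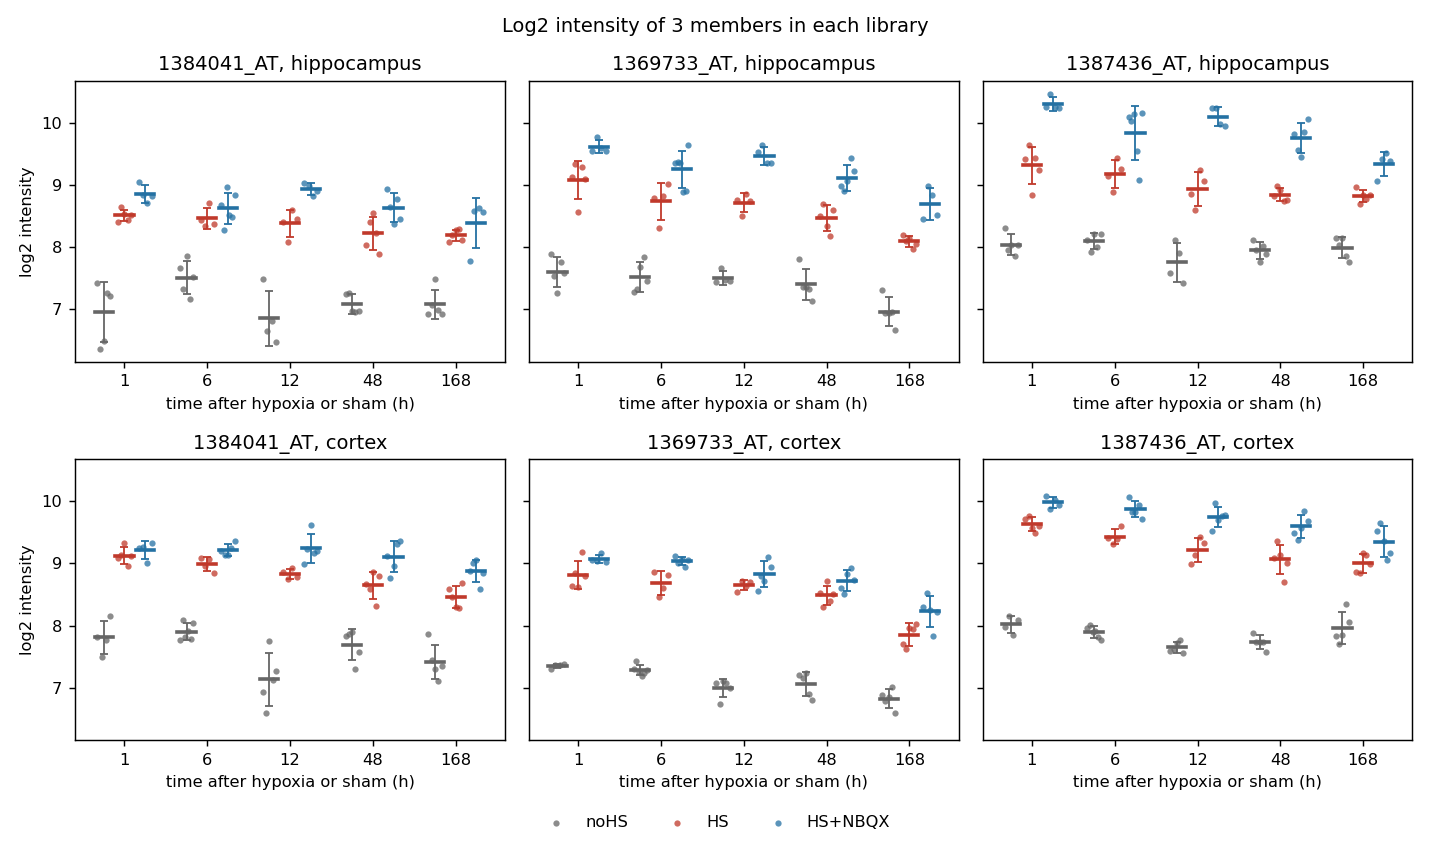
Log2 intensity (vertical axis) of 1384041_AT, 1369733_AT and 1387436_AT in each library, by time in h (horizontal axis), tissue (rows) and treatment (colors). Points are libraries, thick bars are group means and thin bars are 1 SD. For 1387436_AT in hippocampus the group medians rise from 8.02 in noHS to 8.92 in HS and 9.98 in HS+NBQX.

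**Figure D5:**
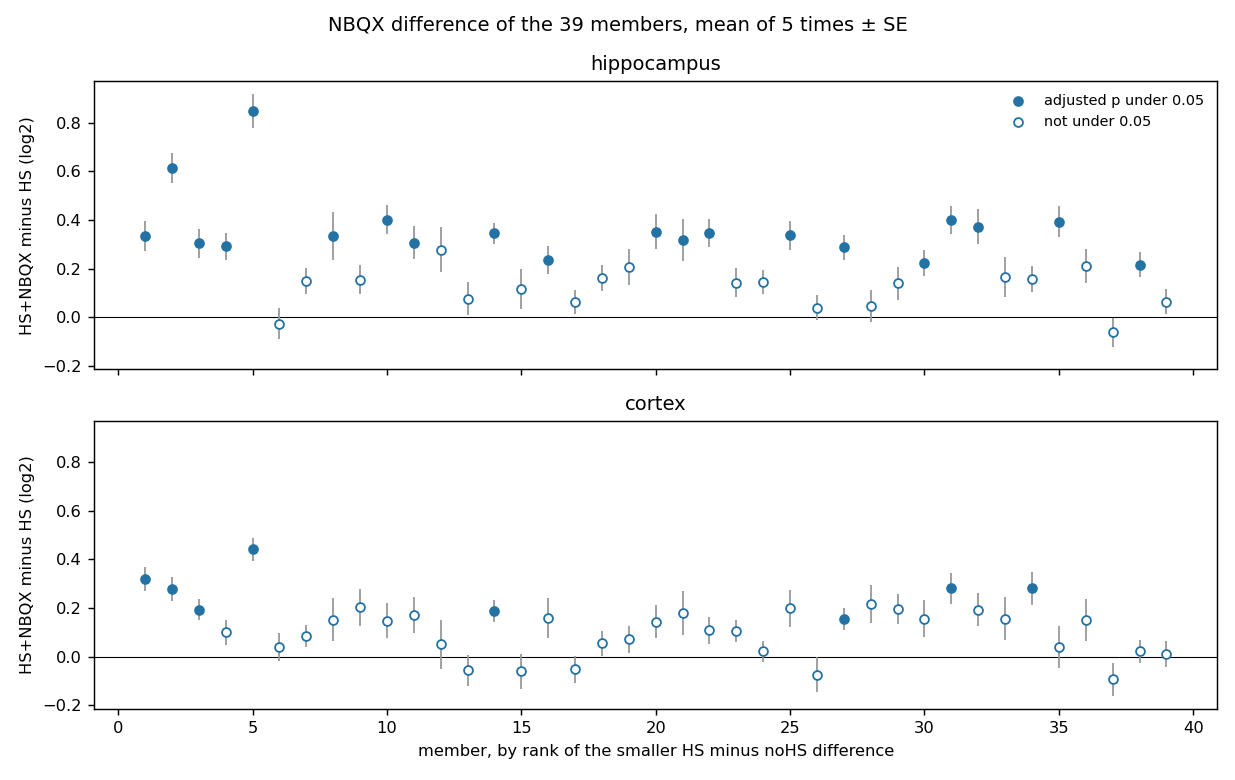
HS+NBQX minus HS (log2, mean of the 5 times, vertical axis) of each member, by rank (horizontal axis), in hippocampus and cortex. Bars are 1 SE, and filled points have an adjusted p under 0.05. Filled points number 20 in hippocampus and 8 in cortex, and all lie above 0.

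The difference between HS+NBQX and HS was followed over time as well. In hippocampus the median over the members was 0.32 at 1 h, 0.15 at 6 h, 0.29 at 12 h, 0.24 at 48 h and 0.20 at 168 h, and between 29 and 38 of the 39 were above 0. In cortex it was 0.05, 0.16, 0.07, 0.17 and 0.14, with 24 to 34 members above 0. Of all probe sets, 44.5% (168 h) to 58.4% (1 h) were above 0 in hippocampus and 36.5% (12 h) to 52.5% (6 h) in cortex. The F test of a change of this difference with time called 0 members in hippocampus and 0 in cortex, and 0% of all probe sets in each. At an unadjusted p under 0.05 it had 2 and 4 members, against 5.41% and 5.57% of all probe sets, the smallest adjusted p of a member was 0.900 and 0.790, and the analysis of variance of the methods called 0 members in each.

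Against noHS, all 39 members were called higher in HS+NBQX in each tissue. This compares with 15.9% of all probe sets called higher in hippocampus and 14.2% in cortex, and shares the noHS libraries with the rule. The median difference of the members was 1.06 in hippocampus (0.80 to 1.91) and 0.97 in cortex (0.62 to 1.86). For 1384041_AT it was 1.60 ± 0.08 (SE) in hippocampus and 1.54 ± 0.07 in cortex, and for 1369733_AT it was 1.83 ± 0.06 and 1.67 ± 0.05. All HS+NBQX libraries lay above all noHS libraries for 13 members in each tissue, against 0.194% of all probe sets in hippocampus and 0.141% in cortex. With the hexokinase ratio as a covariate, all 39 were still called in each tissue, with medians of 0.94 and 0.89.

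The HS+NBQX minus HS difference of probe sets that met the rule in a single tissue was looked at as well. The 37 that met it in hippocampus only had a median HS+NBQX minus HS difference of 0.15 in hippocampus, with 14 called higher and 0 lower, and of 0.14 in cortex, with 6 called higher and 1 lower. The 22 that met it in cortex only had medians of 0.19 and 0.03, with 9 and 1 called higher. Of all probe sets, 2.66% were called higher and 1.57% lower in hippocampus, and 0.459% and 2.21% in cortex. Both sets were chosen with the HS libraries that this difference uses. A difference between these sets and the members was not tested.

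No member was called for its relation to the number of seizures of a pup. The slope on the number of seizures was fitted within treatment and time over HS and HS+NBQX libraries with a recorded number. In hippocampus its median over the members was 0.01 per seizure on the log2 scale and 30 of the 39 slopes were above 0. In cortex the median was -0.01 and 15 were above 0. The share of slopes above 0 was not taken over all probe sets. The members also shared deviations of single libraries, so these counts are a description. By limma 0 members were called in hippocampus and 0 in cortex, with 0% of all probe sets in each. At an unadjusted p under 0.05 there were 3 members in each tissue, against 3.86% of all probe sets in hippocampus and 4.66% in cortex, and the analysis of variance of the methods called 0 in each. For 1384041_AT the slope was 0.012 ± 0.013 (SE) in hippocampus and -0.005 ± 0.011 in cortex.

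A mean HS level of at least 6 in each tissue was asked for, so the rule kept out probe sets dim in either tissue. The noHS libraries compared here were used by the rule as well. Both tissues of a pup were taken as separate samples in this fit. In noHS, limma called 15 of the 39 members higher in hippocampus, and 14 had the higher level in cortex. These are 38.5% and 35.9% of the members, against 21.9% and 29.9% of all probe sets. The median difference, hippocampus minus cortex, was 0.11 over the members and -0.07 over all probe sets. The largest were those of 1385978_AT, at 8.28 to 9.37 in noHS hippocampus (median 8.78) and 7.13 to 8.80 in noHS cortex (7.92), and of 1371499_AT, at 9.10 to 10.57 (10.17) and 8.81 to 10.17 (9.42). Their ranges overlapped between the tissues, and the differences were 0.79 ± 0.09 (SE, adjusted p = 1.41e-10) and 0.62 ± 0.08 (adjusted p = 6.74e-09).

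Higher in cortex were 1393171_AT, at 4.51 to 6.18 in noHS hippocampus (median 5.63) and 5.49 to 6.55 in noHS cortex (6.13), and 1387285_AT, at 4.58 to 6.62 (5.34) and 5.26 to 6.49 (5.95). The differences were -0.52 ± 0.09 (SE, adjusted p = 7.63e-06) and -0.50 ± 0.09 (adjusted p = 8.07e-06), again with ranges that overlapped. Tissue and plate coincided except in 1 litter, and with the plate as a fixed factor, which rests on that litter, 4 members were called in place of 29, with a median difference of -0.04. Neither 1371499_AT, at a difference of 0.39 (adjusted p = 0.171, limma), nor 1393171_AT, at -0.42 (adjusted p = 0.235), was called in that fit.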

How the data were processed

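Intensities of 142 HT Rat Focus arrays were used. The deposited intensities are linear MAS5 values that the authors rescaled, array by array, to a common 75th percentile of the intensities with a present call. The authors had removed 2 scans whose tissues may have been exchanged. Which version of MAS5 they ran was not given in the sources used here. Of 24249 probe sets, 66 controls were not tested. Intensities at or below the smallest positive value of 0.0526 (97 values) were set to it before log2 was taken, so differences of dim probe sets are the least certain. Arrays have no read depth, and their number limits the precision.

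Groups, litters and replicate numbers came from the labels, and plate positions from the study's supplementary list of scans. Within a tissue, each library was a separate pup. The groups of a comparison were fitted in limma 3.58.1 (R 4.3.3) with a mean per treatment and time, as in the two-way design of the methods, a mean-variance trend and Benjamini-Hochberg adjustment over all 24183 probe sets. A call is an adjusted p under 0.05. HS minus noHS, which the rule used, was not tested. Other steps used Python 3.11.15, and each fit was first checked on simulated intensities. There the tests by time recovered 8 to 16 of 100 changes of 0.5 on the log2 scale, set at 12 h only. Of changes of 1 they recovered 40 to 56 of 100. A test by time with 0 calls therefore does not show that a difference stayed the same.

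Members and lists were chosen with earlier results of these data known. The probe sets to name were the 12 highest-ranked members with a gene symbol, those with the largest NBQX differences and members of gene lists. With no symbols paired to probe sets, up to 2 per direction and comparison are named instead, chosen with their values in view. Gene lists, probe sets of the same gene, markers and promoter motifs were not used here.

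Alternatives were quantile normalization, a common median, a pseudocount of 32, a filter at the 40th percentile of level, the unmoderated analysis of variance of the methods, blocks (plate column, litter, replicate number, animal, plate), the 3' to 5' ratio as a covariate, and each replicate number or litter left out. The hexokinase ratio or the spiked transcripts as a covariate, and covariates or litters in the rule, were added after seeing the data.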

Additional observations from a re-analysis of the deposited data

Results flagged for a closer look

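In hippocampus at 1 h, the mean of the 39 members in replicate 2 of HS was 7.91 on the log2 scale, apart from the other 4 libraries of its group at 7.72 to 7.77. It was the only library that stood apart among 50 sets of libraries looked at, 30 for the mean of the members and 20 for the members 1371499_AT and 1370951_AT in cortex, of which chance alone would mark about 1 in 20. Its part in the results was not tested by itself, and leaving out all libraries with that replicate number brought the NBQX calls in hippocampus to 18 of 39.

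The HS response of 1371499_AT in cortex differed among the 5 times, with an adjusted p of 0.00697 (limma's F test over all probe sets). The same test gave 0.0158 for 1370951_AT. Neither call held in all alternatives.

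The spiked bacterial control transcripts, which are no member and take no part in the comparisons, were 0.348 higher on the log2 scale in HS than in noHS in cortex, and 0.408 higher in HS+NBQX. With their level as a covariate, the members had a median HS minus noHS difference of 0.87 in cortex, and 7 of 39 were called higher in HS+NBQX than in HS there.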

How the results depend on the processing

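The number of probe sets that met the rule was 33 to 42 under quantile normalization, a common median, litter as a block and each replicate number (34 to 40) or litter left out. It was 30 with the 3' to 5' ratio and 31 with the spiked transcripts as a covariate. It was 15 with a pseudocount of 32, which shrinks differences of dim probe sets, and only 11 of these were members. With the hexokinase ratio as a covariate it was 23. In that fit the differences of all 39 members stayed above 0 in both tissues, with medians of 0.73 in hippocampus and 0.78 in cortex. Members called higher in HS+NBQX than in HS numbered 14 to 22 in hippocampus over all alternatives, the fewest with the hexokinase ratio. In cortex they numbered 7 to 10 with all libraries, 4 to 7 without 1 replicate number (4 without replicate 1 or 3, 5 without replicate 4), 5 without litter 1, 3 or 5, and 3 without litter 2. Against noHS, whose libraries the rule used, all 39 were called in each tissue under each alternative, which the choice of the members favors. The HS response by time in cortex had 2 calls, but 1 with quantile normalization or a common median, 4 with litter as a fixed block, 0 to 2 without 1 replicate number (0 without replicate 2, 3 or 5, and 1 without replicate 4), and 1 without litter 1, 4, 6, 8, 9 or 10. The causes were not tested. The tests by time in hippocampus, of the NBQX difference by time and of seizure number called 0 members under each alternative run. The tissue difference had 4 calls with the plate as a fixed factor and 21 to 30 under the others. At the looser false discovery rate of the methods, their analysis of variance called 29 members in hippocampus and 15 in cortex for HS+NBQX minus HS, against 13.4% and 14.9% of all probe sets.

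Replicate numbers did not pair the libraries: for libraries of 2 treatments with the same number, deviations from their group means correlated with a median r of -0.01 to 0.02, and 1 to 3 of 21 to 24 pairs exceeded 0.1. With a replicate block, 19 members were called in hippocampus and 8 in cortex for HS+NBQX minus HS, 39 in each against noHS, 3 for the HS response by time in cortex and 27 between the tissues.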
